A study of Rattus norvegicus with 29 samples.

Results

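The genes described here are a list of 41 symbols named as astrocyte genes, many of them commonly used as astrocyte markers. They were measured in the shell of the nucleus accumbens, a reward region of the ventral striatum, in P (alcohol-preferring) rats, which were bred for high ethanol drinking. Of the 41 genes, 37 had a probe set carrying their symbol alone, and each was read from its brightest probe set by the mean over all 29 arrays. Sox9, Ednrb, Ppp1r3c and Kcnk0 had none, so their expression is not analysed here. The symbol Kcnk0 was also missing from the RefSeq gene names, so which gene it stands for is not known. Dio2 and Mt4, with means of 6.27 and 6.28, fell among the dimmest 30% of probe sets, which were left out, so 35 genes were tested. In all, 14217 genes had such a probe set and 11328 of them were tested. The study set P rats exposed to continuous ethanol (n = 10) and P rats with limited access to ethanol (n = 10) against P rats given only water (n = 9). The design text names 10 samples per group, and 1 water sample is not analysed here. Age, sex, ethanol dose and drinking schedule are not given in the sources used here, and the labels name no engineered allele. No label says whether the samples are separate animals, so the p-values measure only the spread between these samples, which may be technical.

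Astrocytes are the glia that take up glutamate and potassium around synapses, wrap blood vessels with end feet, and pass ions and metabolites through gap junctions between neighbouring cells. Their intermediate filaments and secreted proteins change in injury, and in the accumbens they surround the synapses of medium spiny neurons, the main projection neurons of this region. In bulk tissue, fewer astrocytes and less RNA per astrocyte cannot be told apart.

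The promoters of 4 genes on which the results below turn are shown: Vim, Gjb6 and Id3, whose levels moved together with markers of the meninges, and Gja1, the companion gap junction gene of Gjb6. Each line gives the 200 bases before the annotated start, 5′ to 3′, from RefSeq on GRCr8. Capitals mark any match, on either strand, to the TATA box TATAAA, the GC box GGGCGG, the STAT letters TTCNNNGAA, the AP-1 letters TGANTCA, the CRE letters TGACGTCA or the CCAAT box.
Vim (chr17:81577061-81577260, plus strand): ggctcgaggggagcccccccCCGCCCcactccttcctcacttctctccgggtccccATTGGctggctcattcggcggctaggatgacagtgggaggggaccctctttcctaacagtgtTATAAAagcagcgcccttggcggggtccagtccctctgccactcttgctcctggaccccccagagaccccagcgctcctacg
Gjb6, the upstream of 2 listed starts (chr15:35410139-35410338, minus strand): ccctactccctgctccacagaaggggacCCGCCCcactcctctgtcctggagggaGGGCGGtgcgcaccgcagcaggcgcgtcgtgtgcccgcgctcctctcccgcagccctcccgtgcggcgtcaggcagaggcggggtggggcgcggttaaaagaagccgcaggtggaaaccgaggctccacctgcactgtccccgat
Id3 (chr5:153656091-153656290, plus strand): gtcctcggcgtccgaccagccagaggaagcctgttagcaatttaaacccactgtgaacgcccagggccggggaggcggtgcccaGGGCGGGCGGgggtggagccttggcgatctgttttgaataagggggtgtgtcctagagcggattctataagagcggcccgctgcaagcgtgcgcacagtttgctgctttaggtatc
Gja1 (chr20:36302364-36302563, plus strand): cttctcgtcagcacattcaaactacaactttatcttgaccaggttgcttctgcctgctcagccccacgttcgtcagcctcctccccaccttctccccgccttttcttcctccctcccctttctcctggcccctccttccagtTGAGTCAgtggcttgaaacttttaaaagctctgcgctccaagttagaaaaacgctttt
The Vim window held a TATA box, a GC box and a CCAAT box. The Gjb6 window held GC boxes at positions -172 and -145 from the start, and the Id3 window held 2 overlapping GC boxes at -116 and -112. A promoter was matched for 35 of the 41 genes (40 promoters), a set that differs from the 35 genes tested. It includes Ppp1r3c, Ednrb, Dio2 and Mt4 and lacks Clu, Agt, Prodh and Tst. Gja1 was the only matched gene with the AP-1 letters, at -58. A gene was counted if any of its promoters held a match, while the percentages are of single promoters, so the units differ. GC boxes occurred in 19 of the 35 matched genes and in 28.6% of the 33469 promoters of the table. CCAAT boxes occurred in 12 matched genes and 29.2% of promoters, and TATA boxes in 5 matched genes and 10.4%. The STAT letters occurred in 2 genes (6.07% of promoters) and the CRE letters in 0 (1.46%), while 4.97% of all promoters held the AP-1 letters. A match describes the letters of the window only.

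All 13 medium spiny neuron markers with a probe set passed the filter on dim probe sets, as did 35 of the 37 astrocyte genes. Group means of the 35 genes lay between 8.08 and 15.06 on the log2 scale of RMA (robust multi-array average), and pairs of arrays correlated at 0.986 to 0.998. A log2 difference of 0.1 is a ratio of 1.07, and 0.5 is a ratio of 1.41. Replicate 7 of continuous ethanol stood apart for the astrocyte genes, whose mean deviation from all arrays was 0.27 there, against -0.12 to 0.11 on the other 28 arrays. Replicate 3 of continuous ethanol had the lowest score of leptomeningeal markers, -1.46. On the second principal component 5 arrays, 2 of limited access and 3 of water, lay apart at one end (-22.2 to -15.6), and continuous replicate 4 lay at the other (20.2, where the next array had 10.9).

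No astrocyte gene passed the adjusted threshold of 0.05 in any of the 3 comparisons. For continuous ethanol against water, 0 of the 35 genes were called, beside 0.152% of all 21729 probe sets tested. At an unadjusted p below 0.05 there were 7 genes, 20.0% of the 35 against a background of 16.1%. Sox2, Id4, Hes5 and Slc14a1 were the 4 higher ones (9.62% of all probe sets were), and Prodh, Gjb6 and Aldh1l1 the 3 lower ones (6.48%). The median difference over the 35 was -0.01, beside 0.00 over all probe sets tested. The 95% interval lay within 0.5 of zero in either direction for 34 of the 35 genes, with Vim as the exception.

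For limited access against water the count was 0 of 35, and 0.0% of all probe sets were called. Gja1 and Prodh, both lower, were the 2 genes at an unadjusted p below 0.05 (5.71% against a background of 4.44%, with 2.34% lower). Of the 35 genes, 27 had a lower mean in limited access than in water, where 49.5% of all probe sets did, and the median difference was -0.04, beside 0.00 over all. Since the genes varied together across arrays, as given below, these are not 35 separate observations. Between continuous ethanol and limited access, 0 of 35 were called, beside 0.0046% of all probe sets. The 4 genes at an unadjusted p below 0.05, all higher in continuous ethanol, were Id4, Sox2, Gfap and Cpe (11.4% against 9.31% of all probe sets, with 5.74% higher). The median there was 0.02, beside 0.01 over all. A moderated F test over the 3 groups called 0 of 35 (0.0828% of all), with 4 genes at an unadjusted p below 0.05 against 11.6% of all. In none of the 3 comparisons did any gene's groups fail to overlap, as they did for 0.0322%, 0.0046% and 0.0% of all probe sets.

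**Figure D1:**
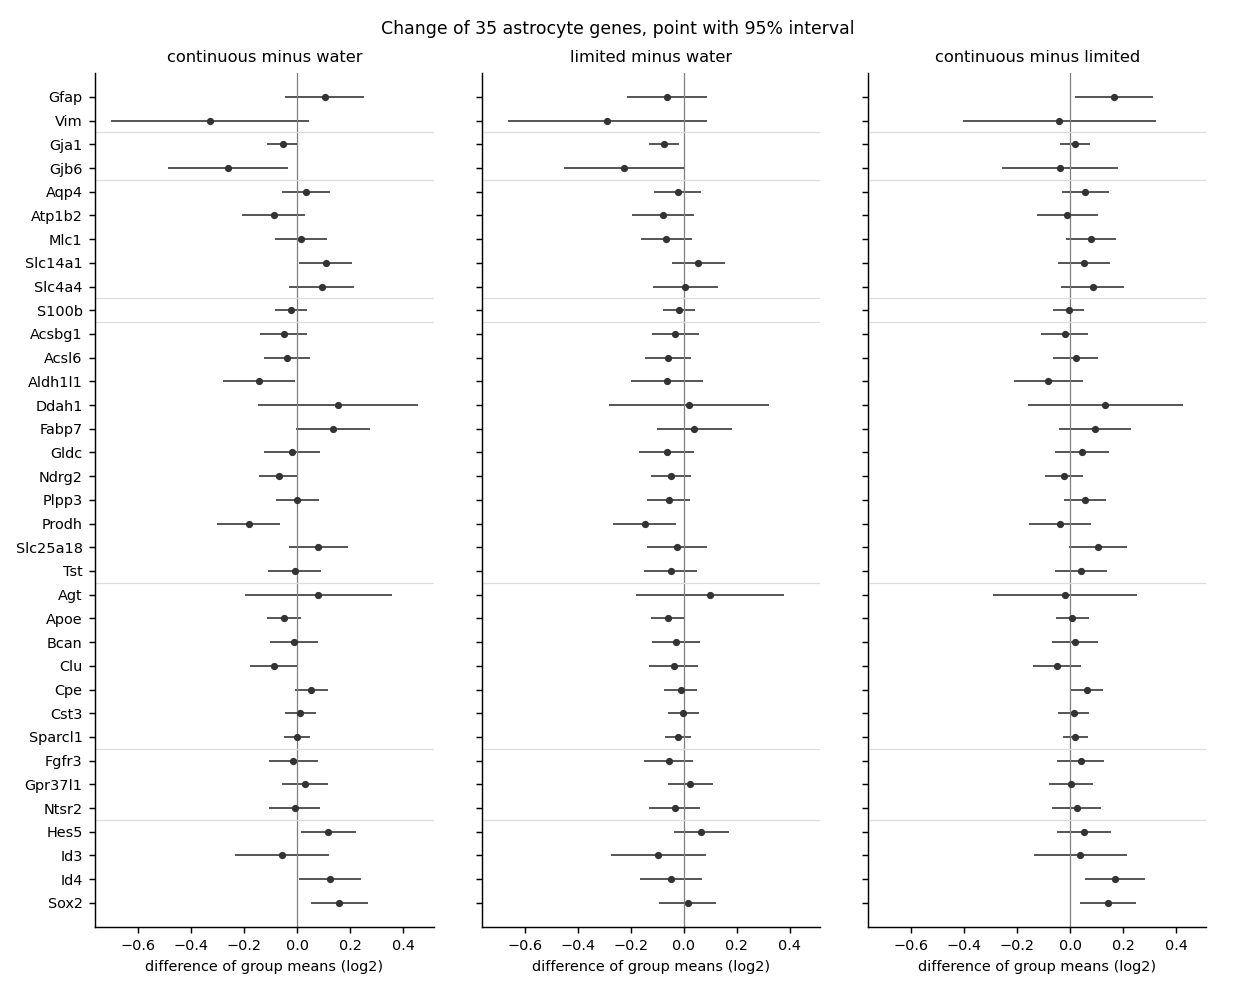
Differences of group means (log2, x axis) of 35 astrocyte genes, ordered by role, in the 3 comparisons, as points with 95% intervals. Most points lie close to 0, and Vim has the widest interval, -0.70 to 0.05 for continuous ethanol minus water.

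The filament genes Gfap and Vim did not pass the test, and their ethanol minus water differences ranged from -0.33 to 0.10. Gfap, the filament protein by which astrocytes are usually stained, lay between 13.27 and 13.96 (median 13.46) in continuous ethanol, between 13.13 and 13.56 (median 13.26) in limited access and between 13.16 and 13.63 (median 13.37) in water. The groups overlapped widely, and the top value was that of continuous replicate 7. The Gfap difference was 0.10 ± 0.07 (SE) between continuous ethanol and water, -0.06 ± 0.07 between limited access and water, and 0.17 ± 0.07 between continuous ethanol and limited access, with limma adjusted p of 0.49, 0.972 and 0.526. Leaving out continuous replicate 7 brought these to 0.05 for continuous ethanol against water and 0.11 against limited access.

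Vim encodes vimentin, a filament of astrocytes that fibroblasts and endothelial cells also make. It was among the most variable genes of the table, with a residual SD of 0.42 (percentile 98.7). Its values ran from 10.52 to 12.51 (median 11.87) in continuous ethanol, from 11.56 to 12.59 (median 11.72) in limited access and from 11.74 to 12.90 (median 12.002) in water. The lowest was continuous replicate 3, and the groups overlapped. Mean Vim was 11.81 ± 0.52 (SD) in continuous ethanol and 11.85 ± 0.32 in limited access, against 12.14 ± 0.40 in water. The differences from water were -0.33 ± 0.18 (SE; adjusted p = 0.373) and -0.29 ± 0.18 (adjusted p = 0.972), and that between the ethanol groups was -0.04 ± 0.18. The first was -0.19 without continuous replicate 3 and -0.41 without continuous replicate 7.

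Both gap junction genes had lower means in the ethanol groups than in water, without passing the test. Gja1, a connexin that couples astrocytes, was one of the least variable genes, with a residual SD of 0.05. It ranged from 14.09 to 14.32 (median 14.17) in continuous ethanol, from 14.08 to 14.23 (median 14.17) in limited access and from 14.17 to 14.27 (median 14.25) in water. All 10 limited access arrays and 9 of 10 continuous arrays lay below the water mean, although the ranges overlapped. The Gja1 difference from water was -0.07 ± 0.03 in limited access (SE; unadjusted p = 0.0134, adjusted p = 0.972) and -0.06 ± 0.03 in continuous ethanol (adjusted p = 0.33). A dimmer probe set of Gja1 gave -0.15 ± 0.06 for continuous ethanol against water (adjusted p = 0.198) and -0.11 ± 0.06 for limited access against water.

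Gjb6 encodes the other main astrocyte connexin. Its range was 10.07 to 11.15 (median 10.75) in continuous ethanol, 10.32 to 11.25 (median 10.80) in limited access and 10.75 to 11.49 (median 10.95) in water. Continuous replicate 3 was again the lowest array, and 8 of 10 arrays of each ethanol group lay below the water mean. The difference of Gjb6 from water was -0.26 ± 0.11 in continuous ethanol (SE; adjusted p = 0.246), a ratio of 0.834, and -0.22 ± 0.11 in limited access (adjusted p = 0.972). The first was -0.19 without continuous replicate 3 and -0.31 ± 0.11 without continuous replicate 7. Without water replicate 2 it was -0.20 ± 0.11 (limma unadjusted p = 0.069). With the leptomeningeal score as a covariate the Gjb6 differences from water were -0.10 and -0.09, and the Vim differences -0.04 and -0.04.

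**Figure D2:**
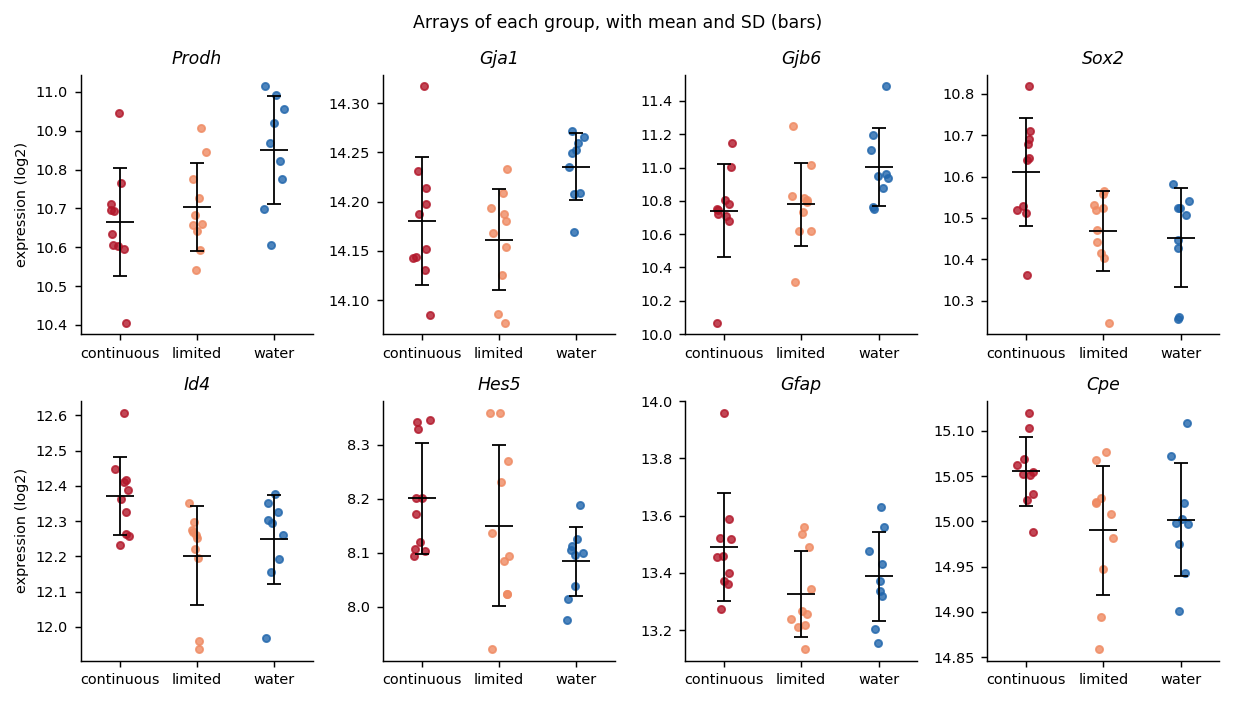
Expression (log2, y axis) of 8 astrocyte genes on every array of continuous ethanol, limited access and water, with the group mean and SD as bars. The ranges of the 3 groups overlap for each gene. All 10 continuous arrays of Hes5 lie above the water mean of 8.08.

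On their brightest probe sets, channel and transporter genes were near water levels. Aqp4, the water channel of astrocyte end feet, lay between 13.43 and 13.85 (median 13.55) in continuous ethanol, between 13.35 and 13.62 (median 13.55) in limited access and between 13.49 and 13.70 (median 13.53) in water. The medians differed by less than the ranges. The differences from water were 0.03 ± 0.04 in continuous ethanol (SE, adjusted p = 0.727) and -0.02 ± 0.04 in limited access (adjusted p = 0.98). The 3 tested probe sets of Aqp4 gave -0.08 to 0.03 for continuous ethanol against water and -0.14 to -0.01 for limited access against water. The 5 genes of this role, which include the end-foot membrane protein Mlc1, the bicarbonate cotransporter Slc4a4, the sodium pump subunit Atp1b2 and the urea transporter Slc14a1, had differences of -0.09 (Atp1b2) to 0.11 (Slc14a1) between continuous ethanol and water. Between limited access and water they ranged from -0.08 to 0.06. Slc14a1 ranged from 9.57 to 10.10 (median 9.66) in continuous ethanol, from 9.57 to 9.82 (median 9.62) in limited access and from 9.47 to 9.68 (median 9.58) in water. Its difference of 0.11 ± 0.05 from water had an unadjusted p of 0.0348 and an adjusted p of 0.275. The top value was that of continuous replicate 7, without which the Slc14a1 difference was 0.06 ± 0.03 (unadjusted p = 0.0741).

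Among the metabolic genes, Prodh had the smallest p of all 35 for continuous ethanol against water. It encodes proline dehydrogenase, the mitochondrial enzyme that starts proline breakdown. Prodh values ran from 10.41 to 10.95 (median 10.66) in continuous ethanol, from 10.54 to 10.91 (median 10.67) in limited access and from 10.61 to 11.01 (median 10.87) in water. Of the arrays in each ethanol group, 9 of 10 lay below the water mean. The difference from water was -0.18 ± 0.06 in continuous ethanol (SE; unadjusted p = 0.00367, adjusted p = 0.158), a ratio of 0.88, and -0.15 ± 0.06 in limited access (unadjusted p = 0.0175, adjusted p = 0.972). Without continuous replicate 7 the first was -0.22 ± 0.06 (adjusted p = 0.0965), and without water replicate 2 it was -0.17 ± 0.06 (adjusted p = 0.259). With the leptomeningeal score as a covariate the Prodh differences from water were -0.12 in continuous ethanol and -0.09 in limited access.

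Aldh1l1, a folate enzyme widely used to mark astrocytes, ranged from 9.40 to 9.98 (median 9.53) in continuous ethanol, from 9.53 to 9.99 (median 9.60) in limited access and from 9.49 to 9.97 (median 9.71) in water. Single high arrays in both ethanol groups reached the top of the water range. Its difference from water was -0.14 ± 0.07 in continuous ethanol (SE; adjusted p = 0.28) and -0.06 ± 0.07 in limited access (adjusted p = 0.972). Fabp7, a brain fatty acid binding protein, had a difference of 0.14 ± 0.07 between continuous ethanol and water (adjusted p = 0.329), with 9 of 10 continuous arrays above the water mean, and one of 0.09 ± 0.06 without continuous replicate 7. Ddah1, which degrades a methylarginine inhibitor of nitric oxide synthases, varied widely (residual SD 0.34) and its difference was 0.15 ± 0.15. The other metabolic genes were the acyl-CoA synthetases Acsl6 and Acsbg1, the glycine cleavage gene Gldc, the glutamate carrier Slc25a18, the lipid phosphatase Plpp3, the sulfurtransferase Tst, and Ndrg2. Over the 11 metabolic genes tested, the median difference between continuous ethanol and water was -0.02. In limited access 9 of the 11 had a lower mean than in water, where 49.5% of all probe sets did, with a median of -0.05. The 11 genes share the same arrays, so these are not 11 separate observations. The medians over all probe sets were 0.00 in both comparisons. Not tested because they were dim were Dio2, a thyroid hormone deiodinase, with means of 6.30, 6.26 and 6.26 in continuous ethanol, limited access and water, and the metallothionein Mt4, with 6.23, 6.31 and 6.29.

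S100b, a calcium-binding protein made by astrocytes, ranged from 14.60 to 14.84 (median 14.64) in continuous ethanol, from 14.61 to 14.72 (median 14.68) in limited access and from 14.63 to 14.80 (median 14.66) in water. The 3 ranges lay over each other. Its differences from water were -0.02 ± 0.03 in both ethanol groups, and the 95% interval for continuous ethanol was -0.08 to 0.04.

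The 7 secreted genes differed in spread, with residual SDs from 0.04 (Sparcl1) to 0.31 (Agt). Apoe, the lipid carrier of the brain, lay between 14.59 and 14.85 (median 14.75) in continuous ethanol, between 14.67 and 14.80 (median 14.73) in limited access and between 14.69 and 14.91 (median 14.80) in water. In each ethanol group 9 of 10 arrays lay below the water mean, but the Apoe differences were -0.05 ± 0.03 in continuous ethanol (SE; adjusted p = 0.424) and -0.06 ± 0.03 in limited access (adjusted p = 0.972). Clu, the chaperone clusterin, ranged from 13.99 to 14.39 (median 14.10) in continuous ethanol, from 14.09 to 14.24 (median 14.17) in limited access and from 14.00 to 14.39 (median 14.20) in water. Its difference between continuous ethanol and water was -0.09 ± 0.05 (adjusted p = 0.332), with 9 of 10 continuous arrays below the water mean and continuous replicate 7 above it. Between limited access and water it was -0.04 ± 0.05.

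Cpe, a carboxypeptidase that matures neuropeptides and is also made by neurons, was the only secreted gene at an unadjusted p below 0.05 in any comparison. Its values ran from 14.99 to 15.12 (median 15.05) in continuous ethanol, from 14.86 to 15.08 (median 15.01) in limited access and from 14.90 to 15.11 (median 15.00) in water. Cpe differed by 0.07 ± 0.03 between continuous ethanol and limited access (SE; adjusted p = 0.53), with 9 of 10 continuous arrays above the limited access mean. The other secreted genes are the protease inhibitor cystatin C (Cst3), the synapse-associated matrix protein Sparcl1, the matrix proteoglycan Bcan and angiotensinogen (Agt). Their differences between continuous ethanol and water ranged from -0.01 (Bcan) to 0.08 (Agt). Sparcl1 had a residual SD of 0.04, lower than nearly all genes (percentile 0.1), and its 95% interval for continuous ethanol against water was -0.05 to 0.05.

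The 3 receptors tested, the growth factor receptor Fgfr3, the neurotensin receptor Ntsr2 and the orphan receptor Gpr37l1, had differences between -0.02 and 0.03 for continuous ethanol against water and between -0.06 and 0.03 for limited access against water. None had an unadjusted p below 0.05. Leaving out continuous replicate 7 did not bring any of them past the threshold.

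Of the 4 transcriptional regulators tested, 3 had higher means in continuous ethanol than in water at an unadjusted p below 0.05, as did 9.62% of all probe sets, and none passed after adjustment. Without continuous replicate 7, or without water replicate 2, Sox2 alone of the 3 had such a p (0.0138 and 0.0162), while Id4 had 0.0893 and 0.111 and Hes5 had 0.0593 and 0.0588. Sox2, a factor of neural stem cells that astrocytes keep, ranged from 10.36 to 10.82 (median 10.64) in continuous ethanol, from 10.25 to 10.57 (median 10.50) in limited access and from 10.26 to 10.58 (median 10.51) in water. Most continuous arrays lay above the medians of the other groups, with overlap. Mean Sox2 was 10.61 ± 0.13 (SD) in continuous ethanol, 10.47 ± 0.10 in limited access and 10.45 ± 0.12 in water. The difference was 0.16 ± 0.05 against water (SE; adjusted p = 0.178) and 0.14 ± 0.05 against limited access (adjusted p = 0.526), with 9 of 10 continuous arrays above each mean. Taking the mean of its probe sets turned the first of these to -0.06.

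Id4 and Id3 encode inhibitors of basic helix-loop-helix factors. Id4 lay between 12.23 and 12.61 (median 12.38) in continuous ethanol, between 11.94 and 12.35 (median 12.26) in limited access and between 11.97 and 12.38 (median 12.30) in water. All 10 continuous arrays were above the limited access mean. The Id4 difference was 0.17 ± 0.06 between continuous ethanol and limited access (SE; unadjusted p = 0.00477, adjusted p = 0.526), the smallest p of the 35 in that comparison, and 0.12 ± 0.06 between continuous ethanol and water (adjusted p = 0.285). All 4 tested probe sets of Id4 were higher in continuous ethanol than in limited access, by 0.11 to 0.17. Id3 differed by -0.06 ± 0.09 between continuous ethanol and water, by -0.13 ± 0.07 without continuous replicate 7 and by -0.01 ± 0.09 without water replicate 2.

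Hes5, a repressor that responds to Notch signalling, was one of the dimmer genes tested, between 8.09 and 8.35 (median 8.19) in continuous ethanol, between 7.92 and 8.36 (median 8.12) in limited access and between 7.98 and 8.19 (median 8.10) in water. All 10 continuous arrays were above the water mean. The Hes5 difference was 0.12 ± 0.05 (SE; adjusted p = 0.261) between continuous ethanol and water and 0.07 ± 0.05 between limited access and water (adjusted p = 0.972). A second, slightly dimmer probe set of Hes5 gave -0.05 ± 0.05 between continuous ethanol and water, with 6 of 10 continuous arrays below its water mean, and the mean of both gave 0.03.

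A measure of RNA quality had different means in the ethanol groups. The mean 3 prime minus 5 prime signal of beta-actin and GAPDH control probe sets was 0.57 ± 0.06 (SD) in continuous ethanol, 0.50 ± 0.05 in limited access and 0.53 ± 0.03 in water. With it as a covariate, 0 of the 35 genes had an unadjusted p below 0.05 for continuous ethanol against limited access, where 4 did without it (3.61% and 9.31% of all probe sets). The differences of Id4, Sox2, Gfap and Cpe were then 0.10, 0.10, 0.10 and 0.04.

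Of the 35 genes, 13 had more than 1 tested probe set, and these did not always move together. The gap was widest for Sox2, where 3 probe sets gave -0.25 to 0.16 for continuous ethanol against water. The 2 dimmer Sox2 probe sets tracked each other over the 29 arrays (deviations from group means, Pearson r = 0.892, Spearman rho = 0.878) and not the brightest (r = -0.233 and -0.041). The more intense of the dimmer pair had an SD of 0.16 in continuous ethanol, 0.38 in limited access and 0.45 in water.

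For Slc14a1 the brightest probe set gave 0.11 and a dimmer one -0.11 ± 0.06 for continuous ethanol against water. The brightest Slc4a4 probe set lay between 12.07 and 12.36 (median 12.29) in continuous ethanol, between 11.84 and 12.34 (median 12.25) in limited access and between 11.90 and 12.33 (median 12.21) in water, with full overlap. For limited access against water its probe sets gave 0.01 ± 0.06 and 0.22 ± 0.17. A dimmer probe set of Plpp3 had the smallest p of any of the 53 probe sets of these genes for continuous ethanol against water, at -0.16 ± 0.05 (unadjusted p = 0.0022, adjusted p = 0.151), while the brightest gave -0.00 ± 0.04. It was singled out after its values were seen.

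**Figure D3:**
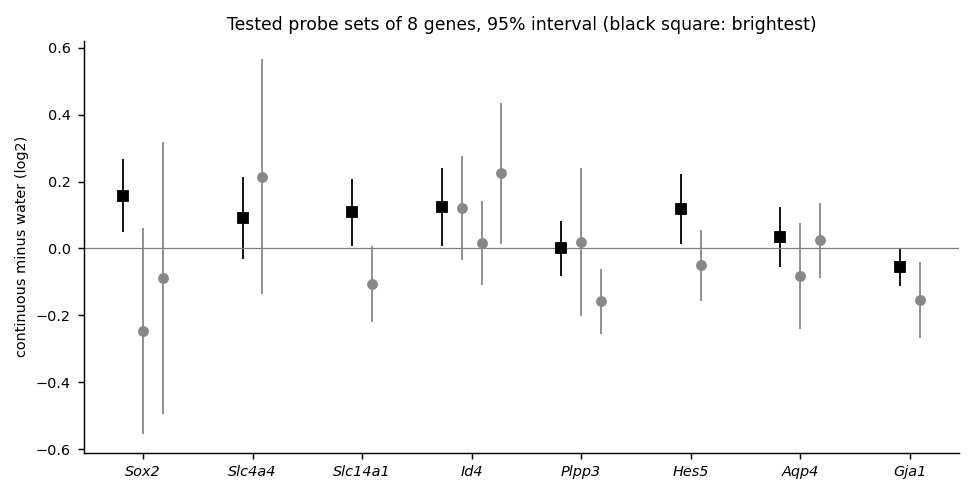
Continuous ethanol minus water (log2, y axis) for each tested probe set of 8 astrocyte genes, with 95% intervals and the brightest probe set as a black square. The Sox2 probe sets span -0.25 to 0.16 and those of Slc14a1 lie on opposite sides of 0.

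Across arrays, the astrocyte genes varied together within groups. Over the 595 pairs of the 35 genes, correlations of the deviations from group means over 29 arrays had a median of 0.342 and ran from -0.606 to 0.899, and 504 were positive. Among 227 genes taken at every 50th place of the table the median was 0.017. Without continuous replicate 7 the median of the pairs was 0.148 and the median of the 227 genes was 0.014. With all arrays Gfap had the highest correlation with the mean of the other 34 (r = 0.807), followed by Mlc1 (0.782), and Cpe had -0.026. Without that array Apoe had the highest (0.705), then Gfap (0.689) and Atp1b2 (0.669), and Mlc1 had 0.58. Vim and Gjb6 were the closest pair at 0.899 (0.886 without that array), and Aldh1l1 and Cpe the most opposed at -0.606. All genes of an array share its RNA, labelling and hybridisation, and these correlations carry no test.

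Continuous replicate 7 was the highest of all 29 arrays for 19 of the 35 genes (54.3%, against 11.1% of all probe sets) and the lowest for none. On that array the microglia score, over 13 of 13 markers, was 0.39, where the highest limited access and water arrays had 0.11 and 0.15. The summed linear signal of these markers, divided by 1000, ranged from 9.65 to 14.8 in continuous ethanol, from 9.88 to 12.2 in limited access and from 9.98 to 12.5 in water. The neuron score was -0.11, the lowest of all arrays. The 41 other astrocyte genes averaged 0.23 there. Its part in the results was not tested beyond leaving the array out. Without it, 9 genes had an unadjusted p below 0.05 for continuous ethanol against water (1 higher and 8 lower), beside 17.4% of all probe sets, with a median of -0.03 and 0 called. Between the ethanol groups there were 5 (3 higher and 2 lower, beside 9.88% of all), the median was -0.00, and 8 of the 35 differences turned sign. Leaving out water replicate 2 left 2 genes at an unadjusted p below 0.05 for continuous ethanol against water, beside 13.3% of all.

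**Figure D4:**
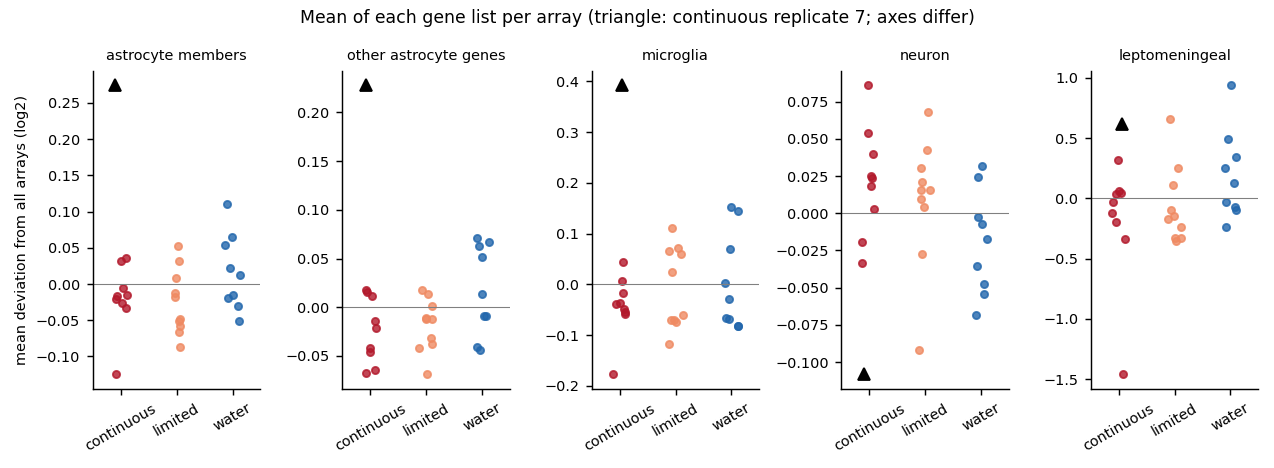
Mean log2 deviation from all arrays (y axis, scales differ) of 5 gene lists on each array of continuous ethanol, limited access and water, with continuous replicate 7 as a triangle. That array is the highest for the astrocyte genes (0.27), the other astrocyte genes (0.23) and microglia (0.39).

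The 5 genes outside the list that followed its mean best, of 11293 genes ranked by the correlation of within-group deviations over 29 arrays, were Pxmp2 (r = 0.873, rho = 0.68), Hspb8 (0.857 and 0.63), Tmem176a (0.848 and 0.697), Ech1 (0.843 and 0.711) and Tmem176b (0.838 and 0.698). Without continuous replicate 7 their r lay between 0.682 and 0.733. Their differences between continuous ethanol and water ranged from -0.10 (Tmem176b) to 0.04 (Hspb8).

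Some astrocyte genes moved with markers of the leptomeninges, the fibroblast-like covering of the brain. All 16 leptomeningeal markers were tested and 0 were called. All 16 had lower means in each ethanol group than in water. The medians were -0.31 for continuous ethanol and -0.27 for limited access, beside 0.00 over all probe sets in both comparisons. The 16 markers share the same arrays, so these are not 16 separate observations. Their summed linear signal, divided by 1000, ranged from 30.7 to 81.9 in continuous ethanol, from 53.8 to 84.7 in limited access and from 57.3 to 94.0 in water. RMA values have no zero, so no marker was at 0. The score, the mean log2 deviation of the 16, averaged -0.11 ± 0.54 (SD) in continuous ethanol and -0.06 ± 0.32 in limited access, against 0.19 ± 0.37 in water. Its medians were 0.00, -0.16 and 0.13 in these groups. Single arrays weighed on the means: continuous replicate 3 had -1.46 and water replicate 2 had 0.94. The group difference of the score without both arrays is not given here.

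In a limma model with group and this score, 5 of the 35 genes had a slope that passed the adjusted threshold, all positive (14.3%, against 5.78% of all probe sets). They were Vim, with 0.99 ± 0.04 log2 units per unit of score (SE; adjusted p = 4.46e-18), Gjb6 with 0.54 ± 0.05 (adjusted p = 2.01e-09), Id3 with 0.35 ± 0.06, Prodh with 0.21 ± 0.05 and Clu with 0.15 ± 0.04. Aqp4, Gja1 and Aldh1l1 had slopes of 0.08 ± 0.04, 0.05 ± 0.03 and 0.11 ± 0.06, which did not pass. Without continuous replicate 7 the 4 slopes of Vim, Gjb6, Id3 and Prodh passed (4.28% of all probe sets). Without both continuous replicate 3 and water replicate 2, which had the extreme scores of -1.46 and 0.94, those of Vim (1.01), Gjb6 (0.56) and Id3 (0.42) passed (3.13%). The part of leptomeningeal RNA in the group differences of these genes was not tested.

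**Figure D5:**
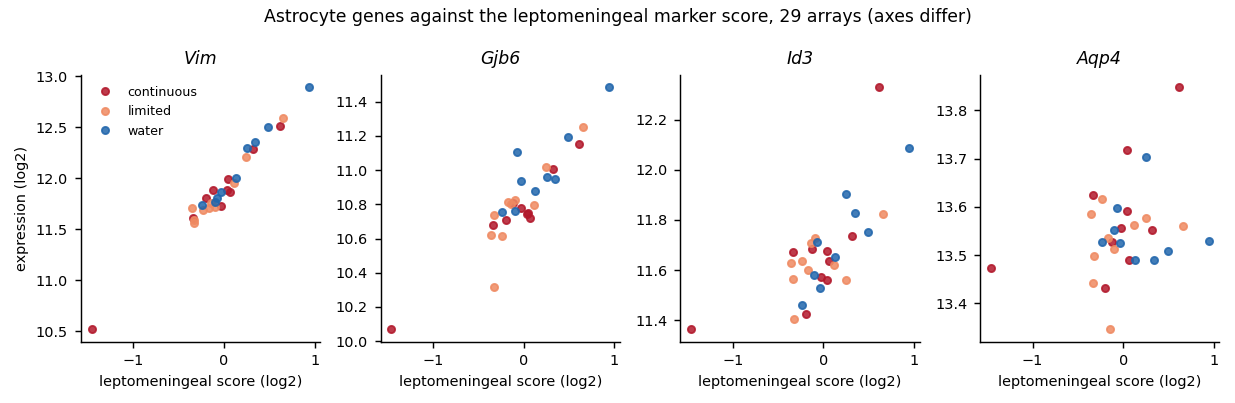
Expression (log2, y axis) of Vim, Gjb6, Id3 and Aqp4 against the leptomeningeal marker score (x axis, log2) on 29 arrays coloured by group. Vim and Gjb6 climb with the score with slopes of 0.99 and 0.54, and Aqp4 has a slope of 0.08.

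Slopes on the other scores depended on single arrays in different ways. On the microglia score 21 of the 35 genes had positive slopes past the threshold (10.5% of all probe sets) and without continuous replicate 7 there were 2, Atp1b2 and Id3 (3.13%). On the neuron score 11 had negative slopes (7.35%) and without that array there was 1, Prodh (2.43%). On the endothelial and mural score 4 were called with all arrays (5.66%) and 5 without that array (6.17%), but 0 without continuous replicate 3 and water replicate 2 (0.295%). On the oligodendrocyte score 1 was called with all arrays (1.9%) and 3 without continuous replicate 7 (3.77%).

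Of 48 other astrocyte genes, among them the glutamate transporter genes Slc1a2 and Slc1a3 and glutamine synthetase (Glul), 41 were tested and 0 were called in any comparison. For continuous ethanol against water 2 had an unadjusted p below 0.05 (4.88%, beside 16.1% of all probe sets). They were the receptor Ntrk2 (-0.07 ± 0.03, adjusted p = 0.267) and Fjx1 (0.11 ± 0.05). For limited access against water only Ntrk2 did (-0.07 ± 0.03, adjusted p = 0.972), which is 2.44% of the 41 beside 4.44% of all. Lower means there were found for 33 of the 41, where 49.5% of all probe sets had them. The 41 genes share the same arrays, so these are not 41 separate observations. The median of the 41 was -0.03, beside 0.00 over all. Slc1a2 had a difference of -0.12 ± 0.06 there (unadjusted p = 0.0585). Between the ethanol groups there were 3 (7.32%, beside 9.31% of all). Of these, the lipid receptor S1pr1 (0.14 ± 0.04) and the membrane protein Ttyh1 (0.17 ± 0.05) were higher in all 10 continuous arrays than the limited access mean. The adjusted p was 0.526 for each.

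Genes that astrocytes raise after injury also did not pass. Of 36 such genes 24 were tested, and limma called 0 in any comparison. At an unadjusted p below 0.05 there were 3 for continuous ethanol against water (12.5%, beside 16.1% of all probe sets). There were 2 for limited access against water (8.33%, beside 4.44%) and 1 between the ethanol groups (4.17%, beside 9.31%). Their medians were -0.07 for continuous ethanol against water, -0.14 for limited access against water and 0.03 between the ethanol groups. Over all probe sets tested the medians were 0.00, 0.00 and 0.01. Continuous replicate 3 had the lowest mean deviation of these genes (-0.48), as it had of the leptomeningeal markers (-1.46). Continuous replicate 7 and water replicate 2 had the highest (0.47 and 0.43), and their leptomeningeal scores were 0.61 and 0.94. The part of leptomeningeal RNA in these medians was not tested. Fkbp5, a chaperone induced by glucocorticoids, had a difference of -0.24 ± 0.06 between continuous ethanol and water (adjusted p = 0.101) and -0.18 ± 0.06 between limited access and water (adjusted p = 0.972). Cebpd, a transcription factor of the acute response, had differences of 0.17 ± 0.06 in continuous ethanol against both water and limited access (adjusted p = 0.191 and 0.526). Aspg was at -0.13 ± 0.06 in continuous ethanol and -0.17 ± 0.06 in limited access against water.

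Among markers of other cells, 1 gene passed: the glucose transporter Slc2a1 of the endothelial and mural list. Its difference between continuous ethanol and water was -0.21 ± 0.05 (adjusted p = 0.0492), where 15 of that list were tested with a median of -0.16. In that comparison 5 of the 15 (33.3%) had an unadjusted p below 0.05, all lower. In the lists of neurons, medium spiny neurons, oligodendrocytes, their precursors, microglia, ependyma, choroid plexus and neuroblasts limma called 0 genes in any comparison. At an unadjusted p below 0.05 there were 0 to 4 per list. Of all probe sets, 16.1% had such a p for continuous ethanol against water, 4.44% for limited access against water and 9.31% between the ethanol groups. For continuous ethanol against water, neurons, oligodendrocytes, their precursors, microglia and choroid plexus had 0.0% to 8.33%. Higher shares were found for medium spiny neurons (4 of 13, 30.8%, all lower), neuroblasts (2 of 6, 33.3%, all higher) and ependyma (1 of 4, 25.0%, lower). The median differences of these lists between continuous ethanol and water lay between -0.11 (ependyma) and 0.06 (neuroblasts). Rasd2 (-0.23 ± 0.06) and Rgs9 (-0.20 ± 0.06) of the medium spiny neuron list had adjusted p of 0.136 and 0.15 in that comparison. The neuron list had a median of 0.02 for continuous ethanol against water and 0.01 for limited access against water.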

How the data were processed

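Total RNA of the nucleus accumbens shell was biotin-labelled for Affymetrix rat arrays, per the labels' protocols. The authors deposited log2 expression values from RMA, per the submitters' processing notes, and the base of the logarithm was inferred from their range (4.04 to 16.0). Software versions for RMA and any array batches are not given in the sources used here. RMA equalises arrays, so these values cannot show a shift common to all transcripts. The number of arrays (10, 10 and 9) limits the precision. No 2 arrays were identical, and array medians lay between 8.17 and 8.21.

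Of 31099 probe sets, 57 controls and the dimmest 30% by mean over all arrays (mean of 6.86 or less) were left out, and 21729 were tested. The platform table gave 1 symbol to 20832 probe sets, several to 436 and none to 9831. A RefSeq table of GRCr8 held 40 of the 41 symbols and was used for names only. Promoter sequences of the same build matched 35 of the 41 genes, not all of them among the genes tested.

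The model had group as its single factor over 29 arrays (limma 3.58.1 with statmod 1.5.0 in R 4.3.3, lmFit followed by eBayes). Tests were two-sided, and p-values were adjusted over all 21729 probe sets by Benjamini-Hochberg, so every adjusted p-value is limma's. Arrays counted above or below a mean are those of the first group against the mean of the second. The fit was tested on simulated data. The members, gene lists and tests were chosen with earlier results of these data known. Named with full values were 10 set markers (9 with a probe set), the 4 genes of smallest p in each comparison, the 3 genes whose probe sets differed most, up to 4 genes of each other list and the 5 most similar other genes. Slc14a1, Fabp7, Ddah1, Id3, Atp1b2, Sparcl1 and the dimmer Plpp3 probe set were added after values were seen. Alternatives were other filters, normalizations, priors, array weights, covariates, probe set rules, the replicate number as a block and leaving out arrays. Models with a marker score as a term were added after seeing the data, except the leptomeningeal covariate.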

Additional observations from a re-analysis of the deposited data

Results flagged for a closer look

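In each group of each of the 35 astrocyte genes, and for their mean, it was asked whether the highest or lowest array stood far from its nearest neighbour relative to the range of the group (Dixon's ratio). Of 108 groups, 18 had such an array, where chance gives about 1 in 20. The same array, continuous ethanol replicate 7, was the high one in 12 of them, so these are not separate events. Its values were 13.96 for Gfap, 14.838 for S100b, 12.389 for the end-foot protein Mlc1, 10.102 for Slc14a1, 11.252 for Slc25a18, 9.975 for Aldh1l1, 12.067 for Acsbg1, 11.791 for Tst, 14.386 for Clu, 13.123 for Ntsr2 and 12.331 for Id3. The mean deviation of the 35 genes on that array was 0.275. In continuous ethanol replicate 3 the low values were 10.518 for Vim and 10.069 for Gjb6, the pair that moved with the leptomeningeal score. In limited access replicate 6, Acsbg1 was high at 11.976 and Sox2 low at 10.247. In the water group, replicate 6 was high for Aqp4 at 13.703 and replicate 3 for Cst3 at 14.94. The causes were not tested.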

How the results depend on the processing

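In all 3 comparisons and the F test, limma called 0 of the 35 astrocyte genes under every alternative run, each of the 29 arrays left out in turn included. The smallest adjusted p of a named difference in any setting was 0.0655. The labels do not say that a shared replicate number pairs samples. The deviations from group means of same-numbered arrays were correlated. Their median correlation was 0.121 for continuous ethanol and water (0 for other pairs) and 0.117 for limited access and water (-0.025). For continuous ethanol and limited access it was 0.034 (-0.023). Of such pairs 5 of 9, 5 of 9 and 2 of 10 were over 0.1. The share of other pairs over 0.1 was not counted, so these values cannot settle whether the number is a pairing. The main model did not use the number, and a model with it as a block was run as an alternative. With the replicate block 0 were called, with 7, 2 and 4 genes at an unadjusted p below 0.05 and medians of 0.0000, -0.0349 and 0.0242 for continuous ethanol against water, limited access against water and continuous ethanol against limited access. Leaving out single arrays moved the unadjusted counts to 2 to 9, 2 to 4 and 2 to 6 in these comparisons: 2 in the first without water replicate 2, 4 in the second without limited access replicate 9 or water replicate 4 or 8, and 2 in the third without limited access replicate 6. The F test count of 4 became 7 without continuous replicate 7 or water replicate 4. Leaving out the 5 arrays apart on the second principal component moved the first to 4, and the leptomeningeal and RNA quality covariates moved the second to 1 and 4. Of 1761 values of the 42 named differences, 27 had the other sign, and none gained a call. For continuous ethanol against limited access, the RNA quality covariate turned Vim to 0.0677, Gja1 to -0.0044 and Gjb6 to 0.0486, the leptomeningeal covariate Vim to 0.0015, and quantile normalization applied again Apoe to -0.005. The mean of a gene's probe sets gave -0.0108 for Gja1, 0.0068 for Clu and -0.0055 for Hes5 there. For continuous ethanol against water it gave -0.059 for Sox2 and -0.0078 for Aqp4, and for limited access against water -0.0977 for Sox2. Without the 5 arrays, continuous ethanol minus water was -0.141 for Vim, -0.071 for Aldh1l1 and -0.0302 for Clu. Without them, Aqp4 was 0.0137, Clu 0.0143 and Sox2 -0.0026 for limited access against water, and S100b 0.0001 for continuous ethanol against limited access. For limited access against water, array weights gave 0.005 for Aqp4, and the RNA quality covariate gave 0.0024 for Cpe. With single arrays left out, the difference between continuous ethanol and limited access ran from -0.119 to 0.1024 for Vim, -0.0259 to 0.0012 for S100b, -0.0898 to 0.0363 for Gjb6 and -0.0044 to 0.0245 for Apoe. That between limited access and water ran from -0.0088 to 0.0403 for Sox2 and -0.0244 to 0.0027 for Cpe. The causes were not tested. Filters, priors and a fit of only the groups compared turned no sign of a named difference, and the stricter filter left Hes5 untested.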
